A study of Mus musculus with 4 samples.

Results

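This section describes 9 genes that mark GABAergic interneurons, the inhibitory nerve cells of the cortex, among 37437 genes measured in primary mouse cortical culture with or without knockdown of the chromatin protein CTCF. The genes were chosen by name: the GABA-synthesizing enzymes Gad1 and Gad2, the vesicular GABA transporter Slc32a1, the transcription factors Dlx1, Dlx2 and Lhx6, the calcium-binding proteins Calb1 and Calb2, and the secreted glycoprotein Reln. An adeno-associated virus carried the knockdown into the cultures. Its target was Ctcf in shCTCF (2 libraries) and lacZ, a bacterial gene that mouse cells lack, in the control shLAC (2 libraries). The strain, age and days in culture, the promoter of the virus, and whether the replicates came from separate cultures were not given in the sources used here. The p-values therefore rest on library-to-library spread alone, and that spread may be technical.

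Cortical interneurons are born in the ganglionic eminences below the cortex and migrate into it. DLX1 and DLX2 are homeodomain proteins that set the GABAergic program in those progenitors, and LHX6 keeps the fate of the somatostatin and parvalbumin classes. The mature cell makes GABA from glutamate with its glutamate decarboxylases and loads it into vesicles with SLC32A1. Calbindin (Calb1), calretinin (Calb2) and Reelin divide interneurons into classes, and each is also made by other neurons: calbindin by some excitatory cells, and calretinin and Reelin by Cajal-Retzius cells of the outermost cortical layer.

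Expression was deposited as TPM, a share of all transcripts that is corrected for gene length, so levels can be compared between genes, while sequencing depth is unknown. Ctcf was at 8.49 and 7.32 TPM in shLAC and at 3.56 TPM in both shCTCF libraries. In shLAC replicate 2, 13 satellite-like predicted genes held 20.2% of all TPM, against 0.405% to 1.86% in the other libraries. TPM sum to a fixed total, so the remaining genes of that library are lower by that share. Levels called scaled TPM below are corrected for this by median-ratio scaling between libraries. Levels given as TPM alone are as deposited, without that correction. All differences are shCTCF minus shLAC on log2(scaled TPM + 1), a scale that understates changes of low genes. Tests by limma covered all 12816 genes that reached 1 TPM in 2 or more libraries. A further limma fit, called the protein-coding fit, took only the 11268 of them that encode proteins and have exons of 300 nt or more, without those 13 genes, and scaled them alone. At an adjusted p below 0.05, 134 genes passed over all tested genes and 683 in the protein-coding fit.

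All 9 genes were detected in all 4 libraries, and 8 passed the expression filter. Gad1 was the most abundant, with scaled TPM between 71.0 and 81.6, a mean above that of 95.7% of tested genes. Calb1 (26.1 to 32.0), Gad2 (24.0 to 27.1), Calb2 (21.7 to 26.4) and Reln (19.6 to 20.2) followed. In this group the ranges of Calb1, Gad2 and Calb2 overlapped each other, and that of Reln lay below all 3. Slc32a1 lay between 7.66 and 11.1 scaled TPM. Lhx6 (3.87 to 4.53) and Dlx1 (3.60 to 4.42) overlapped each other. Dlx2, at 0.675 to 0.937, was the lowest and the one gene of the 9 that failed the filter. The order of Gad2 and Calb2 differed between groups: both Calb2 values were above both Gad2 values in shLAC and below them in shCTCF.

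**Figure D1:**
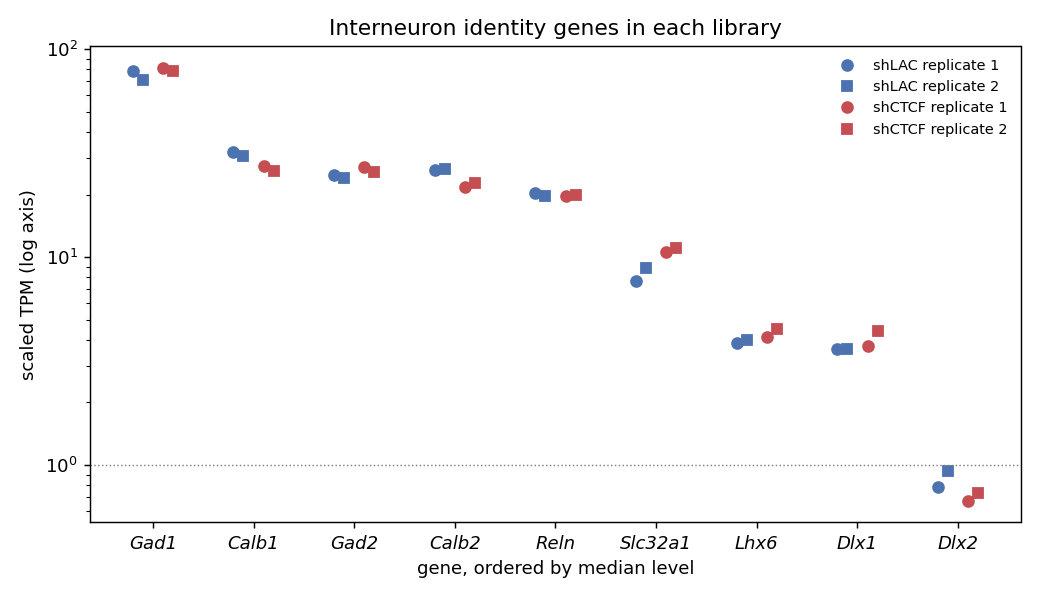
Scaled TPM (log axis) of the 9 interneuron genes in each library, ordered by median level; colour gives the group and shape the replicate, and the dotted line marks 1 TPM. Levels run from Gad1, at 71.0 to 81.6, down to Dlx2, below 1 in all 4 libraries, and the groups lie close together in every gene.

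No member passed the threshold over all 12816 tested genes. The lowest limma adjusted p was 0.106, in Calb2, and 3 of the 8 tested members had an unadjusted p below 0.05, a level that 20.0% of all tested genes reached. Of all tested genes, 1.05% passed at an adjusted p below 0.05 in either direction (0.367% higher and 0.679% lower). In the protein-coding fit Slc32a1 rose, Calb2 fell and 6 members did not pass, where 6.06% of genes passed (2.58% higher and 3.48% lower). The median difference of the 8 members was 0.11, against 0.00 over all tested genes. In scaled values, 5 of the 8 were higher in both shCTCF libraries than in both shLAC libraries, 2 were lower in both and Reln overlapped. Such separation is common in these data, since the groups did not overlap in 53.0% of all tested genes (26.9% higher and 26.1% lower). In the values as deposited, the same 5 were higher and did not overlap while Calb1, Calb2 and Reln overlapped, beside 49.0% of tested genes that did not overlap (45.5% higher and 3.49% lower). In the limma fit of the deposited values 0 members passed, against 2.82% of genes (1.92% higher and 0.905% lower). With 2 libraries against 2, an exact permutation test of a single gene cannot give a two-sided p below 0.333. These are bulk libraries, in which fewer cells of a type and less RNA per cell cannot be told apart.

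**Figure D2:**
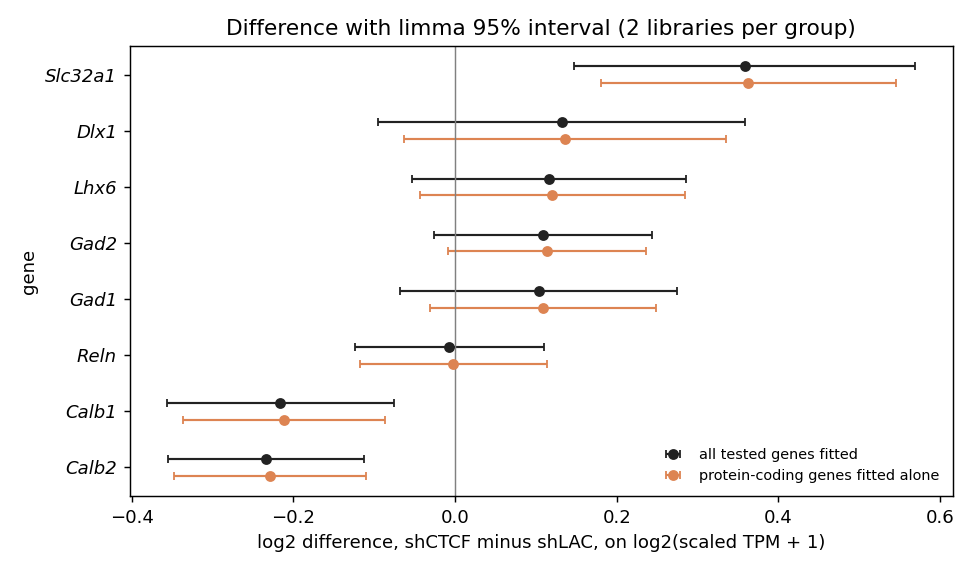
Log2 difference, shCTCF minus shLAC, on log2(scaled TPM + 1) for the 8 tested members, with limma 95% intervals not adjusted for the number of genes, in the fit of all tested genes (black) and of protein-coding genes alone (orange). Slc32a1 lies highest at 0.36, Calb1 and Calb2 lowest at -0.22 and -0.23, and the intervals of Gad1, Gad2, Dlx1, Lhx6 and Reln include 0.

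Slc32a1 had the largest difference of the 8 tested members. As deposited it was at 7.98 and 7.35 TPM in shLAC and at 11.6 TPM in both libraries of shCTCF. After scaling it was at 7.66 and 8.83 against 10.6 and 11.1 scaled TPM, so that both shCTCF libraries were above both shLAC libraries on either scale. The mean went from 8.25 ± 0.830 to 10.8 ± 0.348 scaled TPM (SD, n = 2), 131% of control. The log2 difference was 0.36 (95% interval 0.15 to 0.57, limma adjusted p = 0.127 over all tested genes). In the protein-coding fit Slc32a1 rose by 0.36 (SE 0.0763, limma adjusted p = 0.0462). Whether it passed there depended on which library was left out, as did the share of all genes that passed. The log2 difference in that fit was 0.27 and 0.46 without shLAC replicate 1 or 2. Without shCTCF replicate 1 or 2 it was 0.39 and 0.33. Slc32a1 (ENSMUSG00000037771) lies on chromosome 2, 158610767 to 158615748, + strand, GRCm38.

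Both glutamate decarboxylases were slightly higher in shCTCF, and neither passed. Gad1 (ENSMUSG00000070880, chromosome 2, 70553072 to 70602014, + strand) encodes the decarboxylase found throughout the cell. It was at 81.7 and 59.1 TPM in shLAC and at 89.5 and 83.0 TPM in shCTCF as deposited, and at 78.4 and 71.0 against 81.6 and 78.9 scaled TPM. The lower shCTCF value exceeded the higher shLAC value by less than the gap within shLAC. Its log2 difference was 0.10 (95% interval -0.07 to 0.28, limma adjusted p = 0.434). Gad2 (ENSMUSG00000026787, chromosome 2, 22622205 to 22693874, + strand), the decarboxylase of nerve terminals, was at 24.8 and 24.0 scaled TPM in shLAC and at 27.1 and 25.7 in shCTCF. Its log2 difference was 0.11 (95% interval -0.03 to 0.24, limma adjusted p = 0.322), and the groups lay apart by less than the gap within shCTCF.

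Ratios within a library do not depend on the scaling. No test was run on them, and how often ratios of other gene pairs separate the groups was not counted. Gad2 per Gad1 was 0.316 and 0.338 in shLAC and 0.332 and 0.325 in shCTCF, and the groups overlapped. Slc32a1 per Gad1 was 0.0977 and 0.124 in shLAC and 0.130 and 0.140 in shCTCF. Its groups did not overlap, and the upper control library lay close to the lower knockdown library. Against Slc17a7, the vesicular glutamate transporter of excitatory neurons, Slc32a1 stood at 0.101 and 0.130 in shLAC and at 0.120 and 0.134 in shCTCF, which overlapped. Gad1 per Slc17a7 was lower in shCTCF without overlap, at 1.04 and 1.05 in shLAC against 0.926 and 0.953, 90.2% of control. Slc17a7 itself was at 71.7 ± 5.65 scaled TPM in shLAC and 85.5 ± 3.70 in shCTCF (SD, n = 2; log2 difference 0.25, limma adjusted p = 0.180).

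**Figure D3:**
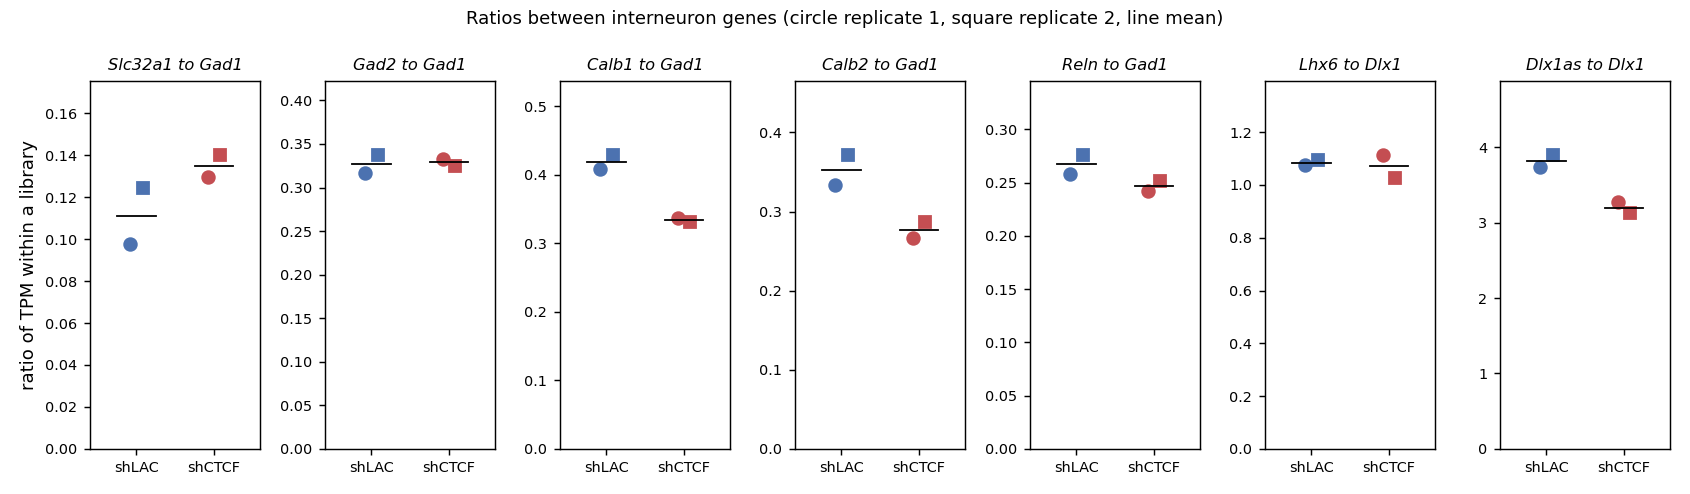
Ratios of TPM within each library for 7 pairs of interneuron genes (circles replicate 1, squares replicate 2, lines group means; each axis starts at 0). Calb1 and Calb2 per Gad1 lie lower in both shCTCF libraries than in both shLAC libraries, as does Reln per Gad1, Slc32a1 per Gad1 lies higher, and Gad2 per Gad1 and Lhx6 per Dlx1 overlap. The 5 ratios to Gad1 share that denominator.

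Among the transcription factors, Dlx1 and Lhx6 differed little and Dlx2 was too low to test. Dlx1 (ENSMUSG00000041911, chromosome 2, 71528113 to 71533981, + strand) was at 3.60 and 3.63 scaled TPM in shLAC and at 3.72 and 4.42 in shCTCF. The shCTCF libraries lay further apart than the groups did, and the log2 difference was 0.13 (95% interval -0.10 to 0.36, limma adjusted p = 0.449). Dlx2 (ENSMUSG00000023391, chromosome 2, 71543408 to 71546754, - strand) is read toward Dlx1, and 9426 nt separate the ends of the genes. It was at 0.820 and 0.780 TPM in shLAC and at 0.740 and 0.770 TPM in shCTCF, below the filter in each library, and after scaling at 0.787 and 0.937 against 0.675 and 0.733. Both shCTCF libraries were below both shLAC libraries on either scale, by less than the gap within shLAC after scaling. Lhx6 (ENSMUSG00000026890, chromosome 2, 36081953 to 36105408, - strand) was at 3.87 and 3.98 scaled TPM in shLAC and at 4.15 and 4.53 in shCTCF. Its log2 difference was 0.12 (95% interval -0.05 to 0.29, limma adjusted p = 0.384), and Lhx6 per Dlx1 overlapped between groups, at 1.07 and 1.10 in shLAC and 1.12 and 1.03 in shCTCF.

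Dlx1 shares its locus with Dlx1as, an antisense RNA that overlaps it on the other strand. Dlx1as was the more abundant, at 14.0 and 11.8 TPM in shLAC and at 13.4 and 14.5 TPM in shCTCF as deposited. After scaling it was at 13.4 and 14.2 against 12.2 and 13.8 scaled TPM, with a log2 difference of -0.08 (limma adjusted p = 0.583). Dlx1as per Dlx1 was 3.73 and 3.90 in shLAC and 3.27 and 3.13 in shCTCF, and the groups did not overlap. Whether counting used strand was not given in the sources used here, so the division of reads between Dlx1 and Dlx1as is uncertain. The antisense gene of Gad1, Gad1os, was at 0.08 to 0.25 TPM, and that of Slc32a1, Gm14205, was listed at 0 in 3 libraries and at 0.19 TPM in shCTCF replicate 2.

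The calcium-binding proteins were the 2 tested members with both shCTCF libraries below both shLAC libraries after scaling. Calb1 (ENSMUSG00000028222, chromosome 4, 15881264 to 15908064, + strand) was at 33.4 and 25.4 TPM in shLAC and at 30.1 and 27.4 TPM in shCTCF as deposited, where the groups overlapped. After scaling it was at 32.0 and 30.5 against 27.5 and 26.1 scaled TPM, where they did not overlap. The mean was 85.6% of control, with a log2 difference of -0.22 (95% interval -0.36 to -0.08, limma adjusted p = 0.143 over all tested genes and 0.0680 in the protein-coding fit). Calb2 (ENSMUSG00000003657, chromosome 8, 110137502 to 110168210, - strand) was at 27.2 and 21.98 TPM in shLAC and at 23.8 TPM in both libraries of shCTCF as deposited, and at 26.1 and 26.4 against 21.7 and 22.7 scaled TPM. The mean was 84.5% of control, and the log2 difference was -0.23 (95% interval -0.35 to -0.11, limma adjusted p = 0.106). In the protein-coding fit Calb2 fell by 0.23 (SE 0.0496, limma adjusted p = 0.0494). Whether Calb2 passed there also depended on which library was left out, as did the share of all genes that passed. Its log2 difference in that fit was -0.24 and -0.22 without shLAC replicate 1 or 2. Without shCTCF replicate 1 or 2 it was -0.20 and -0.26. With no scaling the differences of Calb1 and Calb2 were -0.02 and -0.04, beside a median of 0.17 over all tested genes, so their distance below the median gene was about the same.

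Relative to Gad1 in the same library, Calb1, Calb2 and Reln each stood lower in shCTCF. Calb1 per Gad1 was 0.409 and 0.430 in shLAC and 0.337 and 0.331 in shCTCF, 79.6% of control. Calb2 per Gad1 was 0.334 and 0.372 in shLAC and 0.267 and 0.287 in shCTCF, 78.5% of control. Reln per Gad1 was 0.258 and 0.276 in shLAC and 0.242 and 0.252 in shCTCF, 92.5% of control. The groups did not overlap in these 3 ratios, which share Gad1. For Reln per Gad1 they lay apart by less than the gap within shLAC, and Reln itself overlapped between groups. Calb2 per Calb1 overlapped, at 0.816 and 0.866 in shLAC and 0.791 and 0.869 in shCTCF.

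Reln (ENSMUSG00000042453, chromosome 5, 21884454 to 22344702, - strand) encodes Reelin, which guides neuron positioning through the receptors LRP8 and VLDLR and the adaptor DAB1. It was at 21.1 and 16.3 TPM in shLAC and at 21.7 and 20.9 TPM in shCTCF as deposited, and at 20.2 and 19.6 against 19.8 and 19.9 scaled TPM, the narrowest range of the 9 in relative terms. Its log2 difference was -0.0071 (95% interval -0.12 to 0.11, limma adjusted p = 0.949). In the values as deposited the sign turned, at 0.188, beside a median of 0.17 over all tested genes. Of the 11 other tested genes of the Reelin pathway, 0 passed in limma over all tested genes or in the protein-coding fit. In the former 2 had an unadjusted p below 0.05, which 20.0% of all tested genes reached. Lrp8 was at 11.5 and 12.5 scaled TPM in shLAC and at 13.85 and 13.6 in shCTCF (log2 difference 0.18, limma adjusted p = 0.201). Vldlr, at 15.6 scaled TPM in both groups, and Dab1, at 17.4 ± 0.0319 and 17.1 ± 0.523, differed by 0.00 and -0.03 on the log2 scale.

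The promoters of the members are listed in RefSeq (GRCm38.p6) as windows from 250 bases before to 50 after a transcript start, and 7 of the 9 genes have at least 1 such window, 9 windows in all. Since the knocked-down protein binds DNA, the windows were searched on both strands for letters of its consensus; no binding was measured in these samples. A core of 12 bases that joins CCA, any 2 bases, AG, any 2 bases and GGC was in 0 of the 9 windows and in 2.43% of 32851 windows in the table. AGGGGGC, one form of the end of that core, was in the Reln window alone, 3 times, and in 10.6% of all windows. CCCTC, the run in the protein's name, which overlaps AGGGGGC on the other strand where a G stands before it, was in 8 of the 9 windows (not in that of Dlx2) and in 66.0% of all windows. TAATTA, a core bound by homeodomain proteins such as DLX1 and DLX2, was in 0 of the 9 and in 5.29% of all windows. The bases before the start are shown for Slc32a1, the member with the largest difference (chr2:158610508-158610757, + strand), and Reln, the member with the smallest (chr5:22344706-22344955, - strand), with AGGGGGC in capitals.
Slc32a1: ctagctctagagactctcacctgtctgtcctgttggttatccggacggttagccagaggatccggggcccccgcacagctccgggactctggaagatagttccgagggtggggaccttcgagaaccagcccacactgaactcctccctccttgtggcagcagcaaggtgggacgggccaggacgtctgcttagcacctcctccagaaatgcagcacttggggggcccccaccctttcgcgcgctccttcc
Reln: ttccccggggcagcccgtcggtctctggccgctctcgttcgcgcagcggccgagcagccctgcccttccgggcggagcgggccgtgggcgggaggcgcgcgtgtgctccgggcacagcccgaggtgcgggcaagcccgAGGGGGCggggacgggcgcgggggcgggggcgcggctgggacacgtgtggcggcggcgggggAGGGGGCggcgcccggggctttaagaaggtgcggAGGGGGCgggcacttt
The full windows are GC-rich, with 63.3% G and C in Slc32a1 and 80.7% in Reln, against a median of 52.7% over all windows. How often AGGGGGC stands in windows as GC-rich as that of Reln was not counted. A match is a description of the letters and not of a binding site.

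Of the 9 genes, 6 lie on chromosome 2: Gad1, Gad2, Slc32a1, Dlx1, Dlx2 and Lhx6. The nearest tested protein-coding genes around the Dlx1 and Dlx2 pair are Metap1d, a mitochondrial methionine aminopeptidase 2918 nt from Dlx1, and Itga6, an integrin subunit 198861 nt from Dlx2. Itga6 was at 3.11 and 2.50 TPM in shLAC and at 1.91 and 1.62 TPM in shCTCF. Its log2 difference was -0.60 (limma adjusted p = 0.0545 over all tested genes), and it fell in the protein-coding fit (SE 0.0735, limma adjusted p = 0.0102). Metap1d did not pass in either fit (log2 difference -0.25, limma adjusted p = 0.177 and 0.112). Around Slc32a1, Actr5, 9139 nt away, had a log2 difference of 0.24 (limma adjusted p = 0.222) and Ralgapb, 111513 nt away, one of 0.01 (limma adjusted p = 0.924). Of 14 neighbours besides Itga6 and Metap1d, 0 passed by limma in either fit. In the fit of all tested genes, 4 of these 14 had an unadjusted p below 0.05, as did Itga6 and Metap1d. That level was reached by 20.0% of all tested genes.

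Other genes of GABA metabolism and transport were divided in sign, 3 above and 3 below control. Besides the members, 6 genes of this list were tested and 2 were below 1 TPM throughout. Of the 6, 0 passed in limma over all tested genes, with a median difference of -0.02. An unadjusted p below 0.05 was reached by 1 of them and by 20.0% of all tested genes. In the protein-coding fit Aldh5a1, the succinate semialdehyde dehydrogenase at the end of GABA breakdown, fell by 0.52 (SE 0.0844, limma adjusted p = 0.0216). It was at 8.35 and 7.66 TPM in shLAC and at 5.87 and 6.27 TPM in shCTCF, below control in both. Abat, the transaminase that starts the breakdown, was at 35.3 ± 1.29 scaled TPM in shLAC and 36.3 ± 0.914 in shCTCF (SD, n = 2), and overlapped. Slc6a11, a plasma membrane GABA transporter found in astrocytes, was at 14.7 ± 1.45 and 12.8 ± 0.0790 (log2 difference -0.18, limma adjusted p = 0.286).

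Among interneuron lineage transcription factors besides the members, 12 of 18 were tested, and 0 passed in either fit by limma. In the fit of all tested genes 1 had an unadjusted p below 0.05, which 20.0% of all tested genes reached. The differences of the 12 ran from -0.14 to 0.25 with a median of 0.08, and 9 were positive. Dlx5 was at 1.09 and 1.13 TPM in shLAC and at 1.93 and 1.53 TPM in shCTCF (log2 difference 0.25, limma adjusted p = 0.312). Sp9 was at 1.08 and 0.840 TPM in shLAC and at 1.45 and 1.39 TPM in shCTCF (log2 difference 0.20, limma adjusted p = 0.221). Nkx2-1, the factor of medial ganglionic eminence progenitors, failed the filter, with 1.48 TPM in shLAC replicate 2 and at most 0.560 TPM in the other libraries.

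Of 25 markers of interneuron classes besides the members, 21 were tested, and 0 passed in limma over all tested genes. An unadjusted p below 0.05 was reached by 6 of the 21 and by 20.0% of all tested genes. Their median difference was -0.08, 13 were negative and 8 positive. In the protein-coding fit Lamp5, a marker of neurogliaform cells that some excitatory neurons also carry, fell by 0.59 (SE 0.124, limma adjusted p = 0.0455). As deposited, Lamp5 was at 7.48 and 5.38 TPM in shLAC and at 5.37 and 3.72 TPM in shCTCF. There the lower control library lay next to the higher knockdown library. After scaling it was at 7.179 and 6.465 against 4.895 and 3.539 scaled TPM, where the groups lay further apart. Sst, which encodes the peptide somatostatin and marks a class of the Lhx6 lineage, overlapped between groups after scaling. It was at 90.2 and 66.9 TPM in shLAC and at 92.2 and 90.4 TPM in shCTCF as deposited. After scaling it was at 86.5 and 80.4 against 84.0 and 86.0 scaled TPM (log2 difference 0.03, limma adjusted p = 0.821). Pvalb, the third calcium-binding class marker, was at 0.20 to 0.63 TPM and was not tested. Adarb2, a marker of interneurons from the caudal ganglionic eminence, was at 11.2 and 9.36 TPM in shLAC and at 14.4 and 13.7 TPM in shCTCF (log2 difference 0.23, limma adjusted p = 0.122 over all tested genes and 0.0572 in the protein-coding fit). The peptide genes Npy (log2 difference -0.22, limma adjusted p = 0.216), Cck (-0.17, limma adjusted p = 0.177) and Vip (-0.10, limma adjusted p = 0.720) did not pass.

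**Figure D4:**
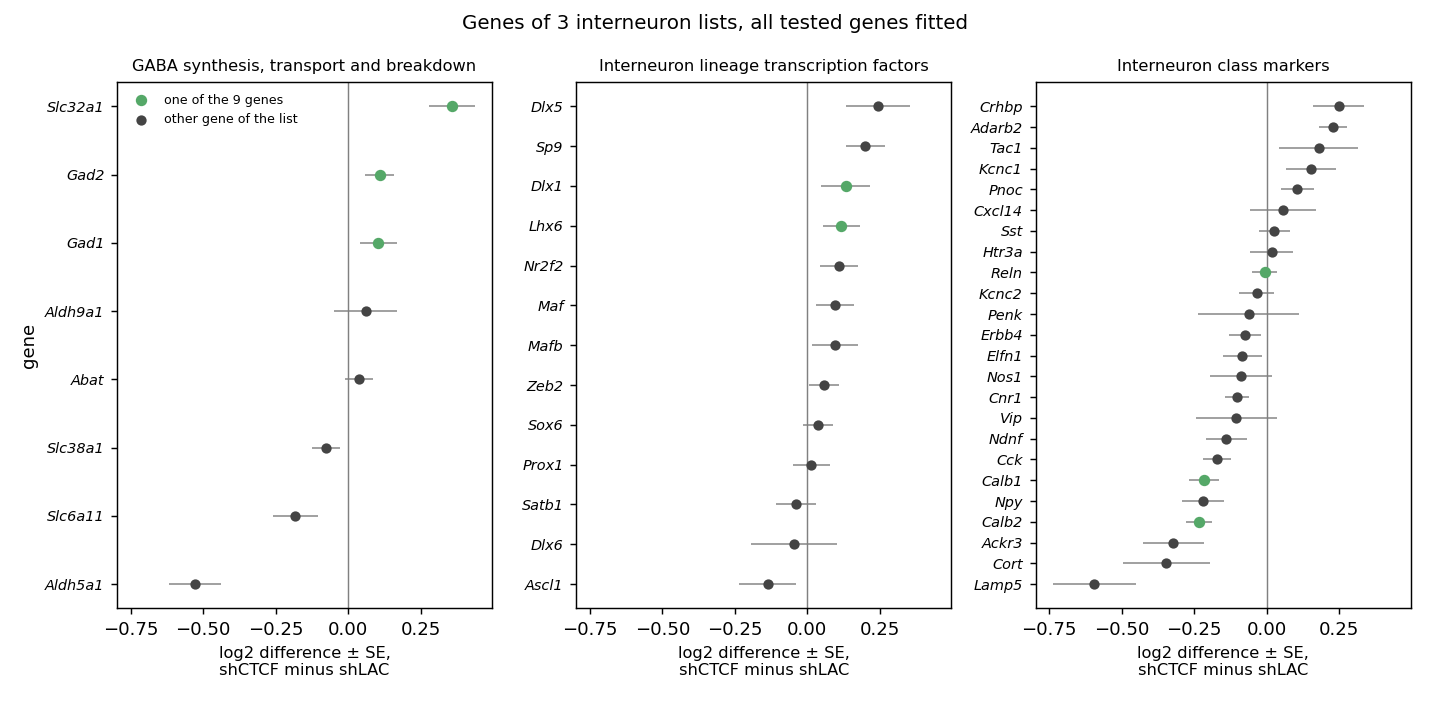
Log2 difference, shCTCF minus shLAC, with standard error, in the fit of all tested genes, for genes of 3 lists: GABA synthesis, transport and breakdown (8), interneuron lineage transcription factors (13) and interneuron class markers (24), the members in green. Slc32a1 is the highest of its list at 0.36 and Lamp5 the lowest of the class markers at -0.59, and no gene in the plot passed at an adjusted p below 0.05.

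The other calcium-binding proteins were divided in sign, 4 above and 4 below control. Of 8 others tested, 0 passed in limma over all tested genes or in the protein-coding fit. In the former 0 had an unadjusted p below 0.05, against 20.0% of all tested genes. The median difference of the 8 was -0.03, and the range was -0.19 to 0.07. In scaled values, 4 of the 8 were lower in both shCTCF libraries than in both shLAC libraries, as for Calb1 and Calb2, and 1 was higher. Of all tested genes, 26.1% were lower in that way and 26.9% higher. Calm2, the most abundant of the list and a calcium sensor of all cells, was at 672 ± 0.451 scaled TPM in shLAC and 644 ± 14.95 in shCTCF (SD, n = 2; log2 difference -0.06, limma adjusted p = 0.589). Whether Calb1 and Calb2 differ from these genes was not tested.

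Markers of other cells that make these transcripts were compared over whole lists. All 7 Cajal-Retzius markers, among them Trp73, Lhx1 and Lhx5, were below 1 TPM in every library, with a summed scaled TPM of 0.422 to 0.628 against 19.6 to 20.2 for Reln. Excitatory cortical markers summed to 162 and 156 scaled TPM in shLAC and to 174 and 169 in shCTCF. Of 11 tested, 0 passed by limma in either fit. Over all tested genes 4 of them had an unadjusted p below 0.05, which 20.0% of all tested genes reached. Of the 11, 5 had a positive and 6 a negative difference. Without Slc17a7 the sum was 86.7 and 88.5 scaled TPM in shLAC and 85.7 and 85.8 in shCTCF. Pan-neuronal markers summed to 1179 and 1220 scaled TPM in shLAC and 1237 and 1216 in shCTCF. Of 10 tested, 0 passed over all tested genes, and in the protein-coding fit Rbfox3, a splicing regulator of mature neurons, rose by 0.25 (limma adjusted p = 0.0461) and Elavl4, a neuronal RNA-binding protein, fell by 0.47 (limma adjusted p = 0.0141). Per 1000 TPM of pan-neuronal markers in the same library, Slc32a1 stood at 6.49 and 7.24 in shLAC and 8.55 and 9.11 in shCTCF, 129% of control. On that measure Calb1 was at 83.7%, Calb2 at 82.7% and Gad1 at 105% of control. The part of neuron content in the results above was not tested.

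Striatal projection neurons are also GABAergic, and 9 of 12 of their markers were tested. Their sum was 64.3 and 62.0 scaled TPM in shLAC and 68.4 and 67.9 in shCTCF, with Isl1, Ebf1 and Six3 below 1 TPM throughout. Of the 9, 7 had a positive and 2 a negative difference. Over all tested genes 0 passed by limma (5 at an unadjusted p below 0.05, which 20.0% of all tested genes reached). In the protein-coding fit Drd1, a dopamine receptor, fell by 0.43 (limma adjusted p = 0.0463). Ppp1r1b, the most abundant, was at 25.9 ± 0.0711 and 28.3 ± 0.459 scaled TPM (SD, n = 2; log2 difference 0.13, limma adjusted p = 0.216). All 10 tested astrocyte markers had a negative difference, with a median of -0.30, and their sum was 142 and 118 scaled TPM in shLAC and 112 and 88.3 in shCTCF. Over all tested genes 0 passed by limma (3 at an unadjusted p below 0.05, against 20.0% of all tested genes). In the protein-coding fit Aqp4 and Slc1a3 fell (limma adjusted p = 0.0151 and 0.0204). In the fit of the deposited values 2 passed, Aqp4 (limma adjusted p = 1.35e-05) and Slco1c1 (limma adjusted p = 0.0311), and Slc1a3 did not (limma adjusted p = 0.634). That fit took the spread of every gene from the trend in level and not from the gene's own libraries. Within each group, all 11 astrocyte markers were higher in replicate 1 than in replicate 2. Their part in the differences of Slc6a11 and Aldh5a1 was not tested. Oligodendrocyte lineage markers summed to 74.1 to 88.2 scaled TPM in shLAC and 79.6 to 88.4 in shCTCF. Of 8 tested, 0 passed by limma in either fit (0 at an unadjusted p below 0.05 over all tested genes, against 20.0% of those). All 6 endothelial markers were below 1 TPM, with Cldn5 at 0. So were 7 of 8 microglial markers, with C1qb at 0, and 5 of 6 fibroblast and pericyte markers; Dcn, the sixth, fell in the protein-coding fit (limma adjusted p = 0.0216). Of 6 proliferation genes, 0 passed by limma in either fit (1 at an unadjusted p below 0.05 over all tested genes, against 20.0% of those).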

How the data were processed

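RNA of 4 libraries was measured in 2 groups of 2, assigned by their labels. The deposited files held TPM per Ensembl gene, 1 file per library and 37437 genes each; the submitters' processing notes name RSEM 1.2.28, CASAVA and mm10. Aligner settings, annotation and strand were not given in the sources used here, and TPM keeps no depth. Symbols and positions came from GENCODE vM21 on GRCm38, the assembly of mm10, which matched 37060 identifiers. Where Dlx6os1 had more than one identifier, the antisense gene was used.

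Values of the 12816 genes at 1 TPM or more in 2 or more libraries were divided by median-ratio factors (0.832 to 1.10). They were fitted on the log2(TPM + 1) scale by limma 3.58.1 (R 4.3.3), whose prior followed a trend in level, without covariates. Benjamini-Hochberg adjustment ran over all of them, with a threshold of 0.05. The prior had 2.44 degrees of freedom there and 4.57 in the fit of 11268 protein-coding genes, which left out 13 satellite-like genes (predicted genes with at least 100 TPM in shLAC replicate 2 and 30 times the value of shLAC replicate 1). Fits were also run on simulated data whose changes were larger than that of any member. Those runs do not cover changes of the size seen in the members. Members, lists and alternatives were chosen with earlier results of these data known. The naming rule took all 9 members, the neighbours, genes of the 3 interneuron lists, and called or most abundant genes of the other lists; any further gene was named with its values in view. Alternatives changed the scaling, filter, pseudocount or prior, added a replicate block or left out 1 library at a time. Some tested genes of the lists enter the counts and are not reported here by name.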

Additional observations from a re-analysis of the deposited data

How the results depend on the processing

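Over all tested genes, 0 members and 0 other interneuron genes passed under any scaling, filter or pseudocount tried. The same held without the trend and with the replicate block. The numbers tested were 8 members and 39 others at 1 TPM, 6 and 23 at 5 TPM, and 9 and 51 with no filter. Fitting protein-coding genes alone gave 2 members and 2 other genes. Adding the replicate block to that fit, chosen after seeing the data, gave 3 and 6, with Calb1 the further member (limma adjusted p = 0.0320), while the share of all genes called went from 6.06% to 11.7% (1313 genes). Leaving out 1 library there, also added later, gave 0 members without either shCTCF library and 2 without either shLAC library (Slc32a1 with Calb2 or Calb1), and 1 to 5 other genes (4 without shLAC replicate 2). The share of all genes called there was 9.98% and 9.34% without shLAC replicate 1 or 2 and 3.07% and 1.62% without shCTCF replicate 1 or 2. The median member difference of 0.11 became 0.29 as deposited, 0.14 on the protein-coding total and 0.05 at 5 TPM. At 5 TPM, Dlx1 and Lhx6 were no longer tested. The median over all genes tested was 0.00 beside that 0.11, and 0.17, 0.03 and 0.00 beside the later values in turn. With 1 library left out the median member difference ran from 0.05 to 0.11, and in the protein-coding fit likewise, with 0.07 without shLAC replicate 2. Of the single members, 7 kept their sign throughout. Over all tested genes, Gad1 (0.10) moved to 0.18 without shLAC replicate 1 and 0.03 without shLAC replicate 2, Gad2 (0.11) to 0.07 without shCTCF replicate 1, Dlx1 (0.13) to 0.23 and 0.03 without shCTCF replicate 1 or 2, and Lhx6 (0.12) to 0.07 without shCTCF replicate 2. Reln, at -0.007, turned positive as deposited (0.188) and on the protein-coding total (0.026), where the median over all tested genes was 0.17 and 0.03. It was also positive without shLAC replicate 1 (0.016 in both fits) and without shCTCF replicate 1 in the protein-coding fit (0.004). Reln was lowest without shLAC replicate 2 (-0.031). The cause of these changes was not tested.

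Among all genes 134 passed, 35.1% of them higher. As deposited 362 passed (68.0% higher), in the protein-coding fit 683, with no expression filter 27, at 5 TPM 83, with the replicate block 14 and without 1 library 9 to 101. Deviations of same-numbered libraries correlated at r = 0.08 over 12816 genes, and the labels do not say that a number marks a shared source, so the numbers were not taken to pair the libraries, which does not show that no pairing exists. Where leaving out a library left 1 in a group, that one was assumed to have the spread of the remaining pair. Depth is unknown, and Dlx2 was too low to test.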
